A study of Sus scrofa with 6 samples.

Results

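The miRNAs miR-26a and miR-101 were followed in small RNA libraries of pig oocytes. These short RNAs of unrelated sequence are both known to repress EZH2. They were taken by name, as the rows ssc-miR-26a and ssc-miR-101 of each deposited table, and are 2 of the 326 mature miRNAs listed there. Both were among the 104 miRNAs with enough reads to test. The oocytes came from prepubertal gilts and had been freed of their cumulus cells. In the large-follicle group (LO) the follicles measured 3 to 6 mm and were aspirated through a 20-gauge needle on a 10 mL syringe. In the small-follicle group (SO) they measured under 2 mm and were aspirated through a 23-gauge needle on a 5 mL syringe. Each group has 3 libraries, called biological replicates in the series design. Follicle size and aspiration equipment cannot be told apart in this design, and the sources used here do not give the number of gilts or oocytes per library. The series title relates miRNAs to how competent an oocyte is to develop, which is the question behind the comparison of LO with SO.

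EZH2 is the catalytic subunit of Polycomb repressive complex PRC2, which places a repressive methyl mark on histone H3. miR-101 was shown to lower EZH2 in human prostate cancer cells, where loss of the miRNA leaves EZH2 high, and miR-26a was shown to lower it in mouse myoblasts during differentiation. In mouse oocytes, PRC2 sets maternal histone methylation that is carried into the embryo. EZH2 itself was not measured here, since the libraries hold small RNAs only.

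The mature sequences below are those of the deposited tables, written 5′ to 3′ with T for U, and show how far apart the seeds of the pair are. Capitals mark the seed, bases 2 to 8, which pairs with target messenger RNAs.
miR-26a: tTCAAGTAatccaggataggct
miR-101: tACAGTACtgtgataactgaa
miR-144: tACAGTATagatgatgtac
miR-199b-3p: tACAGTAGtctgcacattggtt
No other listed miRNA had the full seed of miR-26a or of miR-101. miR-144, an erythroid miRNA, and miR-199b-3p, a miRNA of stromal cells, share all but the last base of the miR-101 seed. miR-144 had 7 reads over the 6 libraries together, so miR-101 held nearly all reads with that start other than the 156 of miR-199b-3p. Over the first 20 bases the nearest listed sequence to miR-101 was miR-199b-3p, with 7 mismatches, and the nearest to miR-26a was miR-155-5p, with 9 mismatches. G and C made up 40.9% of miR-26a and 33.3% of miR-101, against a median of 47.6% over the listed miRNAs.

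In the RefSeq gene table of Sscrofa11.1, another build than the Sscrofa10.2 named in the submitters' processing notes, 1 locus is annotated for miR-26a and 2 for miR-101. MIR26A lies within CTDSP2, a small phosphatase that acts on RNA polymerase II, between AVIL and ATP23. MIR101-1 lies within RCL1, a gene of ribosomal RNA processing, between JAK2 and AK3. MIR101-2 lies within the span of JAK1, a cytokine receptor kinase, between AK4 and RAVER2. The tables give miR-101 a single row, so reads of its loci are not separated.

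Depth differed between the groups. Reads recovered for all listed miRNAs numbered 7755 to 42541 per LO library and 44964 to 55230 per SO library. LO replicate 2 was the shallowest, and listed miRNAs made up 1.68% of the reads behind its scaling, against 2.33% to 3.03% in the other libraries. Over the 6 libraries miR-26a had 2242 reads and miR-101 had 1469. Values are RPM, reads per 1000000 of a total that the authors chose for each library. Intervals are 95% exact Clopper-Pearson intervals, which cover counting error only.

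Both miRNAs belonged to the upper part of the profile in each group. By mean RPM miR-26a was at rank 14 in LO and at rank 14 in SO, while miR-101 was at rank 25 in LO and at rank 18 in SO. Single libraries placed miR-26a between rank 12 and rank 16 and miR-101 between rank 16 and rank 25. miR-26a was higher than miR-101 in 6 of 6 libraries.

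**Figure D1:**
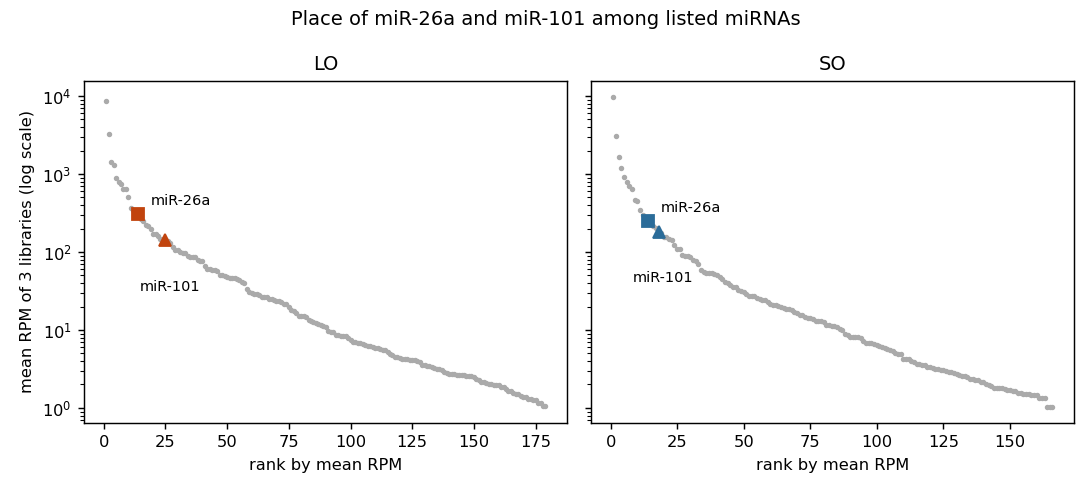
Mean RPM of each listed miRNA with a mean of at least 1 RPM (log axis) against its rank, for LO in the left panel and SO in the right panel, with miR-26a as a square and miR-101 as a triangle. miR-26a sits at rank 14 in both groups, and miR-101 at rank 25 in LO and rank 18 in SO.

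The neighbours in this order did not differ from the members beyond their spread. In LO, miR-31 stood directly above miR-26a at 310 ± 164 RPM and miR-21 directly below at 267 ± 157 RPM, and miR-26a was higher than each of them in 2 of 3 libraries. In SO, let-7c at 276 ± 57.1 RPM and miR-30d at 240 ± 13.7 RPM flanked miR-26a, which was higher than each in 1 of 3 libraries. miR-101 lay in LO between miR-27b-3p at 145 ± 79.7 RPM and miR-191 at 140 ± 66.5 RPM. In SO it lay between miR-146a-5p at 202 ± 39.6 RPM and miR-31 at 175 ± 51.2 RPM (SD, n = 3 throughout).

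miR-26a had 387 RPM (interval 338 to 442), 206 RPM (167 to 252) and 317 RPM (289 to 348) in LO replicates 1 to 3, against 300.2 RPM (276 to 326), 233 RPM (212 to 256) and 206 RPM (187 to 226) in SO replicates 1 to 3. The highest value was in LO replicate 1, LO replicate 2 and SO replicate 3 shared the lowest level, and the groups overlapped. The means were 303 ± 91.5 RPM in LO oocytes and 246 ± 48.7 RPM in SO oocytes (n = 3 each, ± SD). The log2 fold change on log2(RPM + 1) was 0.27 (SE 0.46; 95% interval -0.64 to 1.18), and miR-26a did not pass the test (limma FDR 0.820).

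miR-101 had 177 RPM (interval 144 to 215), 75.8 RPM (52.8 to 105) and 169.9 RPM (149 to 193) in LO replicates 1 to 3, against 256 RPM (234 to 279.5), 147 RPM (131 to 166) and 145 RPM (129 to 162) in SO replicates 1 to 3. SO replicate 1 was the highest and LO replicate 2 the lowest by a wide margin, and the other 4 libraries lay close together, so the groups overlapped here too. The means were 141 ± 56.5 RPM in LO oocytes and 183 ± 63.3 RPM in SO oocytes (n = 3 each, ± SD). The log2 fold change was -0.42 (SE 0.50; 95% interval -1.39 to 0.56), which did not pass the test (limma FDR 0.780). Over the 6 libraries the highest value was 3.37 times the lowest for miR-101 and 1.88 times for miR-26a.

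**Figure D2:**
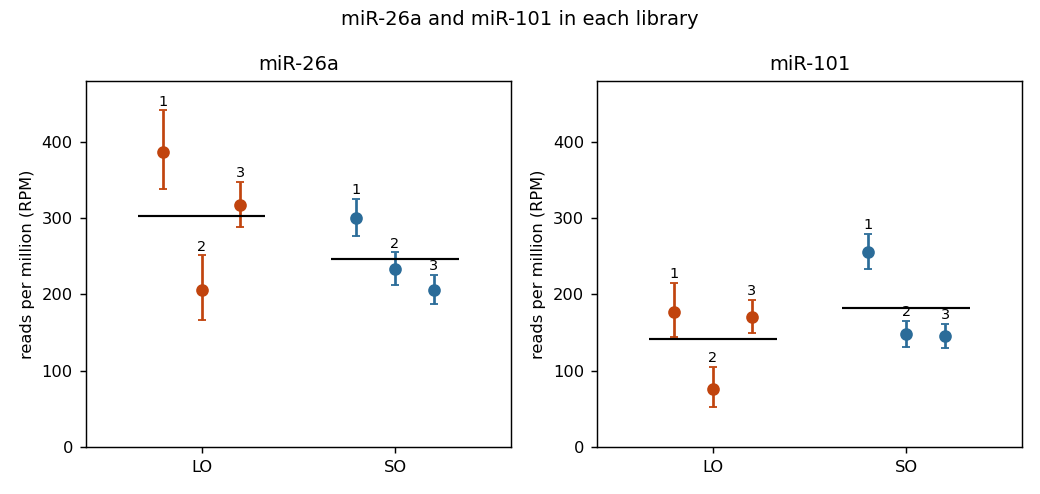
RPM of miR-26a (left) and miR-101 (right) in each LO and SO library, numbered by replicate, with 95% counting intervals as error bars and the group mean as a black line. The LO and SO points overlap for both miRNAs, and LO replicate 2 is the lowest miR-101 value at 75.8 RPM.

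No miRNA of the table was called in this comparison by limma at FDR 0.05, that is 0% of 104 tested, and 4 had an unadjusted limma p under 0.05, neither miR-26a nor miR-101 among them. edgeR's quasi-likelihood test on the recovered reads called 2 (1.92%), limma-voom called 2 and DESeq2 called 0, and the members were not among those calls. RPM ranges of LO and SO did not overlap for 4 of 104 (3.85%), again without the members.

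The position of the pair against the rest of the profile was read from the median. On the deposited scale the median log2 fold change of the 104 tested miRNAs was 0.29, with 69.2% higher in LO, and with TMM scaling, which assumes that most miRNAs do not change, it was 0.05, with 52.9% higher. miR-26a lay 0.02 below the median on both scales, at place 52 of 104 counted from the lowest on the deposited scale. miR-101 lay 0.71 below the median on both scales, at place 15 of 104. TMM applies 1 factor to all miRNAs of a library, so this distance must be nearly the same on both scales. The match between the scales is no further support. With TMM the log2 fold change of miR-101 was -0.66 (limma FDR 0.337). Its unadjusted limma p across all tested miRNAs was 0.0227, and 7 of 104 (6.73%) had an unadjusted p under 0.05 on the lower side. By edgeR's quasi-likelihood test its log2 fold change was -0.68 (unadjusted p = 0.0182, FDR 0.236). The fold change of miR-101 thus differed in size between scalings, and miR-101 passed the adjusted threshold in none of the 23 alternative fits. Without LO replicate 2 its log2 fold change on the deposited scale was -0.02, beside a median of 0.62 for all tested miRNAs, and without SO replicate 1 it was -0.15, beside a median of 0.41.

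The ratio of the pair within a library is free of the scaling, because both counts come from the same library. There were 2.19 reads of miR-26a per read of miR-101 in LO replicate 1 (interval 1.72 to 2.79), 2.71 in LO replicate 2 (1.82 to 4.12) and 1.87 in LO replicate 3 (1.59 to 2.19). The ratio was 1.17 in SO replicate 1 (1.04 to 1.33), 1.58 in SO replicate 2 (1.36 to 1.84) and 1.42 in SO replicate 3 (1.23 to 1.64). All 3 LO libraries lay above all 3 SO libraries, although the counting intervals of LO replicate 3 and SO replicate 2, which stand next to each other, overlapped.

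The mean ratio was 2.26 ± 0.428 in LO oocytes and 1.39 ± 0.205 in SO oocytes (SD, n = 3 each). On the log2 scale the means were 1.16 ± 0.27 in LO and 0.47 ± 0.22 in SO, a difference of 0.69, or 1.62-fold, with an exact two-sided permutation p of 0.1. That is the smallest p that 3 libraries against 3 can give, so this test cannot reach 0.05 with these libraries. Leaving out 1 library at a time kept the difference between 0.55, without LO replicate 2, and 0.82, without LO replicate 3. LO replicate 2, the library with the highest ratio, rests on 95 reads of miR-26a and 35 reads of miR-101.

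Separation of this kind was common in the table. Of the 5356 pairs that the 104 tested miRNAs form, the log2 ratios of LO and SO did not overlap for 921 (17.2%), and of the 990 pairs formed by the 45 miRNAs with a mean of at least 50 RPM, for 237 (23.9%). The members took different sides of it. miR-101 was lower in every LO library than in any SO library relative to 41 of the 103 other tested miRNAs and higher relative to 0, whereas the median tested miRNA was lower relative to 3. By that count miR-101 was at place 7 of 104. miR-26a was higher in every LO library relative to 17 of 103 (16.5%) and lower relative to 5 (4.85%). Over all pairs, 17.2% did not overlap in either direction, so miR-26a was near the table as a whole. The median tested miRNA was higher relative to 4.5, and by that count miR-26a was at place 18 of 104.

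**Figure D3:**
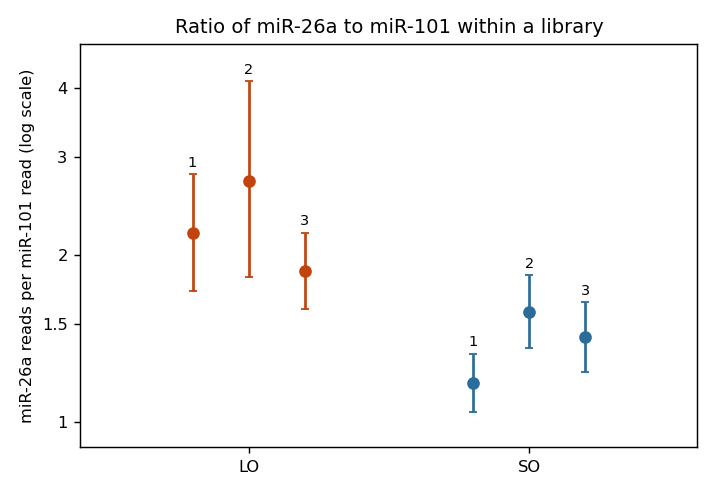
Reads of miR-26a per read of miR-101 (log axis) within each LO and SO library, numbered by replicate, with exact 95% counting intervals. The LO libraries run from 1.87 to 2.71 and the SO libraries from 1.17 to 1.58, so the points of the groups do not overlap.

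As a share of listed miRNA reads the members also parted, in opposite directions. miR-26a took 1.28%, 1.23% and 1.06% in LO replicates 1 to 3, against 1.04%, 0.994% and 0.883% in SO replicates 1 to 3. miR-101 took 0.584%, 0.451% and 0.569% in LO, against 0.887%, 0.629% and 0.622% in SO. Every LO library was above every SO library for miR-26a and below every SO library for miR-101. On log2 shares the fold change was 0.29 for miR-26a and -0.40 for miR-101. The median of all tested miRNAs on that scale was also 0.29, with 69.2% higher in LO, so miR-26a moved as the typical miRNA did. The mean shares were 1.19% ± 0.112 in LO oocytes and 0.973% ± 0.0809 in SO oocytes for miR-26a, and 0.535% ± 0.0726 in LO oocytes and 0.713% ± 0.151 in SO oocytes for miR-101 (SD, n = 3 each). The exact permutation test, two-sided, gave p = 0.1 for either miRNA, the smallest p possible here.

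Of all tested miRNAs, 16 of 104 miRNAs (15.4%) had shares that did not overlap, 9 higher in LO (8.65%) and 7 lower in LO (6.73%). The gap for miR-26a was narrow, between 1.06% in LO replicate 3 (interval 0.967 to 1.16) and 1.04% in SO replicate 1 (0.958 to 1.13). For miR-101 the closest libraries were LO replicate 1 at 0.584% (0.476 to 0.709) and SO replicate 3 at 0.622% (0.556 to 0.695), whose intervals overlapped as well. miR-205, the most abundant miRNA, takes part of each share. With miR-205 left out of the total, miR-26a took 1.71% to 1.92% in LO and 1.55% to 1.64% in SO, and miR-101 took 0.709% to 0.918% in LO and 1.01% to 1.40% in SO, so the order of the groups was the same.

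Co-variation of the pair over the libraries depended on the scale. Within LO, both were highest in replicate 1 and lowest in replicate 2, and within SO, both were highest in replicate 1 and lowest in replicate 3. The summed share of listed miRNAs among all reads had the same order, at 3.03%, 1.68% and 2.99% in the LO replicates 1 to 3, against 2.88%, 2.34% and 2.33% in the SO replicates. On log2(RPM + 1) the pair had a Pearson r of 0.65 (exact permutation p = 0.161) and a Spearman rho of 0.77 (exact permutation p = 0.103) over 6 libraries. Without LO replicate 1 and SO replicate 3, the libraries farthest from the median of miR-26a, r was 0.84.

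The relation differed between scalings. With TMM r was 0.14 (exact permutation p = 0.790), with DESeq2 size factors 0.18 (exact permutation p = 0.768), and on shares of listed reads it was -0.43 (exact permutation p = 0.396). These are 4 scalings of 1 relation, none of which passed the test. Deviations from the group means, which remove the difference between LO and SO, had an r of 0.96 on the deposited scale, 0.40 with TMM, 0.31 with DESeq2 size factors and 0.31 on shares, given as a description. Without the 2 libraries farthest from the median of miR-26a on each scale, r was 0.88 with TMM and 0.83 with DESeq2 size factors. On shares it was -0.70. The size of r thus depended on which libraries were kept.

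**Figure D4:**
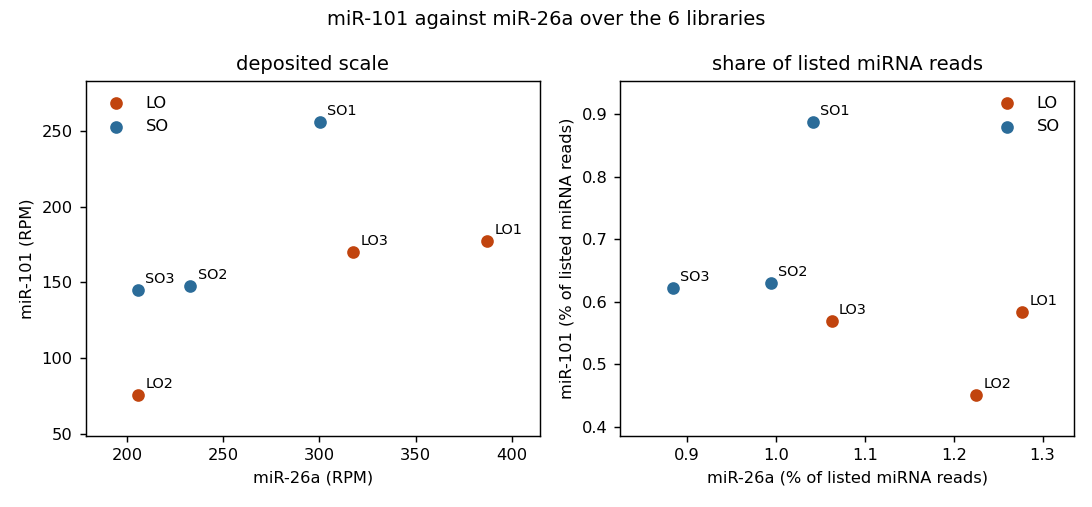
miR-101 against miR-26a in the 6 libraries, as RPM in the left panel and as percent of listed miRNA reads in the right panel, each point 1 library of LO or SO. In RPM both miRNAs order the replicates of a group alike, while in shares the LO points lie to the right of and below the SO points.

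On the deposited scale each member resembled other miRNAs more than its partner. Over the 6 libraries the miRNAs whose log2(RPM + 1) followed miR-26a most closely were let-7g (r = 0.98), miR-29b (0.98), miR-30e-5p (0.98), miR-20a (0.98) and miR-195 (0.97). For miR-101 they were miR-190a (r = 0.99), miR-30d (0.90), miR-202-5p (0.89), miR-361-3p (0.88) and miR-185 (0.88). All of these share the library scaling with the member, and the last pair averaged under 10 RPM.

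miR-101 stood at place 65 among the 103 miRNAs ordered by likeness to miR-26a, and miR-26a at place 44 among those ordered by likeness to miR-101. miR-26a had an r above 0.9 with 23 of 103 miRNAs and a median r of 0.79, while miR-101 had an r above 0.9 with 1 and a median r of 0.57, against a median of 0.56 over all pairs. With TMM the medians were 0.07 and -0.03 for miR-26a and miR-101, and the most alike miRNAs were others, led by miR-30a-3p for miR-26a (r = 0.94) and by miR-187 for miR-101 (r = 0.92).

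miR-190a, the closest match of miR-101 on the deposited scale, averaged 21.5 ± 13.2 RPM in LO oocytes and 29.1 ± 15.3 RPM in SO oocytes, with a log2 fold change of -0.56 (limma FDR 0.780) that was 0.11 without LO replicate 2. let-7g, the closest match of miR-26a, averaged 89.0 ± 54.7 RPM in LO oocytes and 58.1 ± 16.3 RPM in SO oocytes, with a log2 fold change of 0.44 (limma FDR 0.780) that was -0.02 without LO replicate 1 and 0.96 without LO replicate 2.

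Other miRNAs reported to repress EZH2 in human cancer cells or mouse tissue formed a list of 18 listed names together with the members, 13 of them tested. Of the 11 tested names other than the members, 10 had log2 fold changes above 0 and 1 below 0 on the deposited scale. Of all 104 tested miRNAs, 69.2% were above 0 there. The 11 had a median log2 fold change of 0.42 beside 0.29 for all tested miRNAs, and none passed limma's FDR of 0.05. With TMM 7 were above 0 and 4 below 0, beside 52.9% of all tested above 0, with a median of 0.18 beside 0.05. Most of the 11 belong to the let-7 family, so they are not separate observations. Without LO replicate 2, limma on the deposited scale called 18 of all 104 tested miRNAs. These held 3 of the 11, let-7c (FDR 0.000972), let-7d-5p (FDR 0.0346) and let-7e (FDR 0.0346), all of the let-7 family and higher in LO. Leaving out LO replicate 1 brought this median to 0.09, and leaving out LO replicate 2 brought it to 0.75, beside -0.06 and 0.62 for all tested miRNAs.

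The let-7 family, reported to lower EZH2 in human prostate cancer cells, made up 7 of the 13 tested names. let-7a averaged 1314 ± 598 RPM in LO oocytes and 924 ± 177 RPM in SO oocytes, and let-7c 640 ± 460 RPM in LO oocytes and 276 ± 57.1 RPM in SO oocytes, with log2 fold changes of 0.42 and 0.98. Without LO replicate 1 these were 0.09 for let-7a and 0.43 for let-7c, and without LO replicate 2 they were 0.75 and 1.44. With all 6 libraries let-7c had the highest fold change of the list and miR-101 the lowest. Without LO replicate 1 miR-138 was the highest, and without LO replicate 2 miR-340, at -0.03, was as low as miR-101. miR-98, a let-7 relative, averaged 15.2 ± 11.2 RPM in LO oocytes and 8.02 ± 1.04 RPM in SO oocytes. miR-30d, reported to act on EZH2 in human thyroid cancer cells, averaged 213 ± 61.7 RPM in LO oocytes and 240 ± 13.7 RPM in SO oocytes, a log2 fold change of -0.21, and besides miR-101 was the name of the list with a fold change below 0 on the deposited scale. Without LO replicate 2 it was at 0.05.

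miR-138, reported to target EZH2 in human glioblastoma cells, averaged 33.8 ± 11.9 RPM in LO oocytes and 27.3 ± 5.61 RPM in SO oocytes (log2 fold change 0.26, and 0.51 without LO replicate 1). miR-340 averaged 5.78 ± 0.660 RPM in LO oocytes and 5.94 ± 2.84 RPM in SO oocytes. The 5 names with too few reads to test were miR-124a and miR-137, known from neurons, miR-144, the muscle-linked miR-214 and the pancreatic miR-217, with 0 to 7 reads each over the 6 libraries. By mean RPM over all libraries, miR-26a stood behind let-7a, let-7f and let-7c in this list, and miR-101 behind these and miR-30d.

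**Figure D5:**
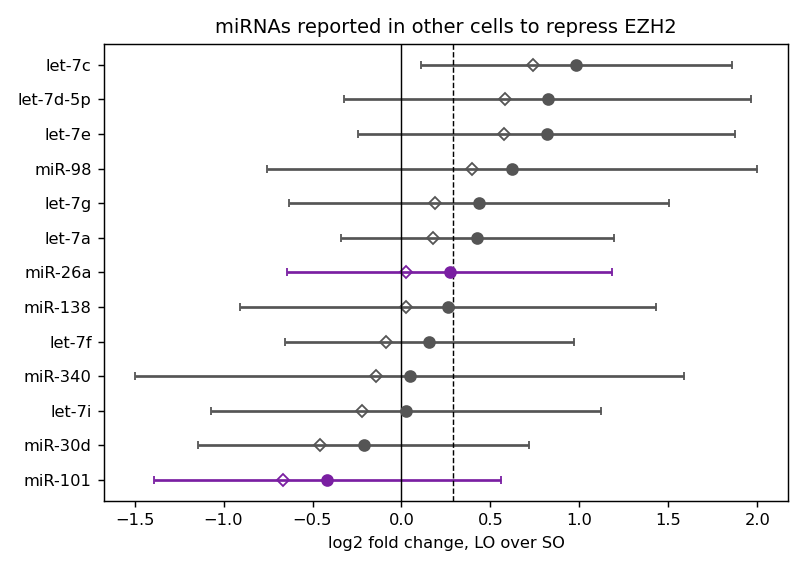
Log2 fold change of LO over SO for the 13 tested miRNAs reported in other cells to repress EZH2, as filled points with limma's 95% intervals on log2(RPM + 1) and as open diamonds with TMM scaling; miR-26a and miR-101 are in purple, and the dashed line marks the median of all tested miRNAs, 0.29. miR-101 has the lowest value at -0.42, and miR-26a lies beside the median at 0.27.

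miRNAs reported to repress BMI1, a subunit of the partner complex PRC1, were too few to summarise beyond their values. miR-128 averaged 886 ± 252 RPM in LO oocytes and 1208 ± 242 RPM in SO oocytes (log2 fold change -0.46), miR-183 averaged 66.3 ± 21.1 RPM in LO oocytes and 87.7 ± 13.9 RPM in SO oocytes (-0.43), and miR-16 averaged 3306 ± 970 RPM in LO oocytes and 3066 ± 589 RPM in SO oocytes (0.08). None of the 3 passed limma's FDR of 0.05 with all 6 libraries. With TMM all 3 were lower in LO, miR-16 at -0.17. With TMM and without LO replicate 2 limma called miR-128 (log2 fold change -0.98, FDR 0.0394), where it called 7 of all 104 tested. On the deposited scale miR-16 was at 0.35 without LO replicate 2 and at -0.09 without LO replicate 1, and miR-183 was at -0.28 without LO replicate 1.

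RNA of other cells was followed through marker lists, since both members are known from many cell types. Granulosa and cumulus markers, 8 listed names, took 3.82%, 1.93% and 2.56% of listed reads in the LO replicates 1 to 3. In SO they took 2.55% in replicate 1, 1.68% in replicate 3 and a value between these in replicate 2. Most of their 5160 reads over the 6 libraries came from miR-21 (1992), miR-31 (1817) and miR-202-5p (1276). miR-132, miR-212, miR-224 and miR-383 of this list had only 1 to 10 reads each. In RPM, the summed markers ordered the replicates of each group as miR-26a and miR-101 did. The sum of all listed miRNAs had that order too, so the match is not particular to these markers. As shares of listed reads they had the order of miR-101 in both groups and that of miR-26a in SO. In LO the miR-26a shares were 1.28%, 1.23% and 1.06% in replicates 1 to 3, another order. The part of such cells in the values of the members was not tested.

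Leukocyte markers took 0.203% of listed reads in SO replicate 1, with 112 reads, and 0.0157% to 0.0630% in the other 5 libraries. Of the list's 156 reads over all libraries, miR-142-3p had 88 and miR-142-5p had 25. In SO these averaged 14.2 ± 23.8 RPM and 3.98 ± 6.50 RPM, spreads larger than the means. miR-155-5p averaged 3.04 ± 1.48 RPM and miR-150 averaged 1.52 ± 0.945 RPM in SO, without such a spread. In LO the spread was larger than the mean for miR-155-5p (6.04 ± 7.12 RPM), miR-150 (0.813 ± 0.874 RPM) and miR-142-5p (0.468 ± 0.811 RPM). It was smaller for miR-142-3p (3.56 ± 2.90 RPM). SO replicate 1 was also the library with the highest miR-101 and the lowest ratio of the pair, and without it the log2 difference of the ratio was 0.57. Theca, stroma and smooth muscle markers took 0.252% to 0.438% in LO and 0.194% to 0.349% in SO. Endothelial markers took 0.0306% to 0.0645% in LO and 0.0137% to 0.0489% in SO, muscle markers 0.0329% to 0.0774% in LO and 0.0157% to 0.0222% in SO, and erythroid markers 0.0141% to 0.0258% in LO and 0.00667% to 0.0157% in SO. The muscle shares were higher in every LO library than in any SO library, on 6 to 14 reads per library. miR-214 of the stromal list and miR-133b and miR-133a-5p of the muscle list had 0 reads in every library. In these bulk libraries fewer cells of a type and less RNA per cell cannot be told apart.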

How the data were processed

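Per the labels' protocols, RNA of denuded oocytes was isolated with mirVana and turned into libraries with QIAGEN's QIAseq miRNA kit. Bowtie2 2.2.2, cutadapt, bcl2fastq, edgeR and Sscrofa10.2 are named, with no role or order, per the submitters' processing notes. The deposited values, headed TPM in the files, were whole multiples of 1 step per library whatever the miRNA's length, and were read as RPM (reads per 1000000). Of the values above 0, 100% came out as whole reads when divided by that step (tolerance 0.01 read). One read was worth 0.702 to 2.17 RPM in LO and 0.457 to 0.522 RPM in SO, so LO values are coarser. The sources used here do not say whether molecular identifiers were used.

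The values log2(RPM + 1), a scale that understates changes of low miRNAs, were tested in limma 3.58.1 (trend set, R 4.3.3) with Benjamini-Hochberg adjustment over 104 miRNAs that passed edgeR's filterByExpr. Its SE follows the trend with abundance, not the miRNA's own replicates. edgeR 4.0.16, DESeq2 1.42.0 and limma-voom on recovered reads, other scalings, pseudocounts, no filter, leave-one-out and a replicate block were alternatives. TMM with leave-one-out and edgeR with the block were added after the data were seen. Group differences of single values used exact two-sided permutation (scipy 1.17.1).

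The members and lists were chosen with earlier results of these data known. Named besides them were the 5 miRNAs most correlated with each member, its neighbours in mean RPM and up to 8 tested names per list; the TMM matches, miRNAs with few reads and the seed matches were named after their values were seen. Chi-square per degree of freedom between replicates was 2.71 to 16.8, so none were duplicates.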

Additional observations from a re-analysis of the deposited data

How the results depend on the processing

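miR-101 stayed lower in LO in all 23 alternatives, with log2 fold changes from -0.71 to -0.02 and adjusted p from 0.157 to 0.992; 10 of the 23, each with TMM or DESeq2 scaling, had an unadjusted p under 0.05. miR-26a changed sign in 4 of 23, at -0.013 with DESeq2 size factor scaling, -0.024 with DESeq2, -0.12 with TMM without LO replicate 2 and -0.014 with TMM without SO replicate 1, and was otherwise between 0.0032 and 0.53; the cause was not tested. Leaving out 1 library on the deposited scale gave 0.07 to 0.53 for miR-26a and -0.63 to -0.02 for miR-101. The number of miRNAs called was 2 with edgeR, 2 with limma-voom and 0 to 18 with 1 library left out, the 18 without LO replicate 2; with TMM it was 0 to 7, the 7 without LO replicate 2. The log2 difference of the ratio was 0.55 to 0.82 over the 8 alternatives. Leaving out 1 library could not change its direction, because every LO ratio lay above every SO ratio. The correlation was -0.43 on shares of listed reads and 0.50 to 0.74 with 1 library left out.

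LO and SO share replicate numbers in their titles. Deviations of same-numbered libraries from their group means correlated at -0.34, -0.22 and 0.08, so no pairing was seen. With 3 libraries per group, these correlations cannot exclude a shared source of same-numbered samples. With the replicate number as a block, the log2 fold changes were 0.27 for miR-26a and -0.42 for miR-101, 0 miRNAs were called by limma and 0 by edgeR, and the log2 difference of the ratio was 0.69 (exact sign-flip p = 0.25, the smallest 3 pairs can give). Depth limits miR-101 most in LO replicate 2, with 35 reads.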
